A study of Oryza sativa with 6 samples.

Results

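The genes described here encode proteins of the light reactions of photosynthesis, the photosystems and the electron carrier between them, and were measured in whole rice caryopses, the developing grains, of the mutant gif1 and of wild-type Zhonghua11. Members were found by name: all probe sets assigned to a single gene whose symbol or synonym is PSA or PSB plus one letter, PETE, or CAB plus a digit and R. Such a name is carried by 25 genes of the RefSeq gene table, and 4 of them, PSAH, PSAG, PETE and CAB2R, have a probe set here. These 4 genes have 6 probe sets among the 57194 that are not controls, and 17905 genes have a probe set assigned to a single gene. Of the other 21 genes 19 are encoded in the plastid genome, among them psbA and psaA, and 2, CAB1R and PSBW, in the nucleus, and they were not analysed here.

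Each genotype gave 3 single-colour oligonucleotide arrays, one per biological repeat, all of caryopses 7 days after flowering. The gif1 plants are mutant in GIF1, which encodes an invertase of the cell wall that cleaves the sucrose delivered to the grain, and Zhonghua11, a japonica cultivar, is the wild type they are compared with. The labels give no allele and do not say how many grains were pooled for an array. A signal is the deposited intensity of a probe set on a linear scale, and differences are given as gif1 minus wild type of log2(signal + 17.7).

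In the light reactions, light-harvesting proteins hold chlorophyll and pass its excitation to photosystem II and photosystem I. Electrons leave photosystem II, cross the cytochrome b6f complex, and are carried by plastocyanin to photosystem I, which reduces ferredoxin. A young rice grain has a thin green layer in its pericarp, the maternal wall around the endosperm, and that layer is the usual site of these transcripts in a caryopsis. The arrays held whole grains, so the layer itself was not measured. More green cells, more transcript per green cell and a smaller share of RNA from the rest of the grain cannot be told apart.

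The photosystem I subunit gene PSAH and the plastocyanin gene PETE were higher in gif1, and the light-harvesting gene CAB2R was not called. PSAG, another photosystem I subunit gene, was higher in its brighter probe set, with a call that held under 9 of 16 alternatives. PSAH, PSAG and PETE rose by 0.90, 0.57 and 0.78 on the log2 scale, and the 2 CAB2R probe sets differed by -0.25 and 0.15 without passing the test. The latter CAB2R probe set passed as higher with arrays centred on their medians (0.48) or scaled to the hybridization controls (0.65). Of the 6 probe sets, 5 were bright enough to be tested, and of these 3 were higher and 0 were lower at a limma adjusted p under 0.05. Over all 28597 tested probe sets, 5.98% were called higher (1709) and 6% lower (1716), 12% in all. With arrays centred on their medians the counts were 5817 higher and 613 lower, and with arrays scaled to the hybridization controls 9777 higher and 477 lower. All gif1 arrays lay above all wild-type arrays for the 3 that rose, as they did for 15.1% of the tested probe sets, and the groups were apart in either direction for 33.4%.

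PSAH is the H subunit of photosystem I, the side of the complex where the antenna of photosystem II can dock. Its probe set read 4942.3, 4381.7 and 3964.6 in gif1, against 2189.2, 2419.4 and 2456.2 in wild type. The lowest gif1 array was therefore well above the highest wild-type array. The means were 4430 ± 491 in gif1 and 2355 ± 145 in wild type (SD, n = 3 each), a ratio of 1.88. The log2 difference was 0.90 (SE 0.12, limma adjusted p = 0.00132), and 1143 of the tested probe sets had a higher one. PSAH kept its call under all 16 alternatives tried, with differences of 0.82 to 1.41.

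PSAG, the G subunit of photosystem I, lies where the complex meets its own antenna. Its brighter probe set read 2526.4, 2404.3 and 2183.8 in gif1, against 1253.8, 1767.0 and 1795.2 in wild type. The groups did not overlap, and wild-type replicate 1 was lower than the other two. The means were 2372 ± 174 in gif1 and 1605 ± 305 in wild type (SD, n = 3 each). The log2 difference of 0.57 (SE 0.16) passed at a limma adjusted p of 0.0364. Unlike that of PSAH, the call ended without gif1 replicate 1 (adjusted p = 0.132), 2 (0.110) or 3 (0.0806) and without wild-type replicate 1 (0.0605, with a difference of 0.41). It also ended with quantile normalization (0.0555), without an intensity trend in the variance model (0.129) and with the replicate number as a block (0.0551).

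A further PSAG probe set went the other way. It read 39.4, 52.5 and 22.5 in gif1, against 142.5, 92.6 and 71.4 in wild type, so that every gif1 array was below every wild-type array, as for 18.3% of the tested probe sets. Its mean over the 6 arrays was under the minimum signal of 74.1, and it was left out of the test. With no minimum its log2 difference was -1.10 (SE 0.58, limma adjusted p = 0.361), which did not pass. The rise reported for PSAG is that of its brighter probe set alone.

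**Figure D1:**
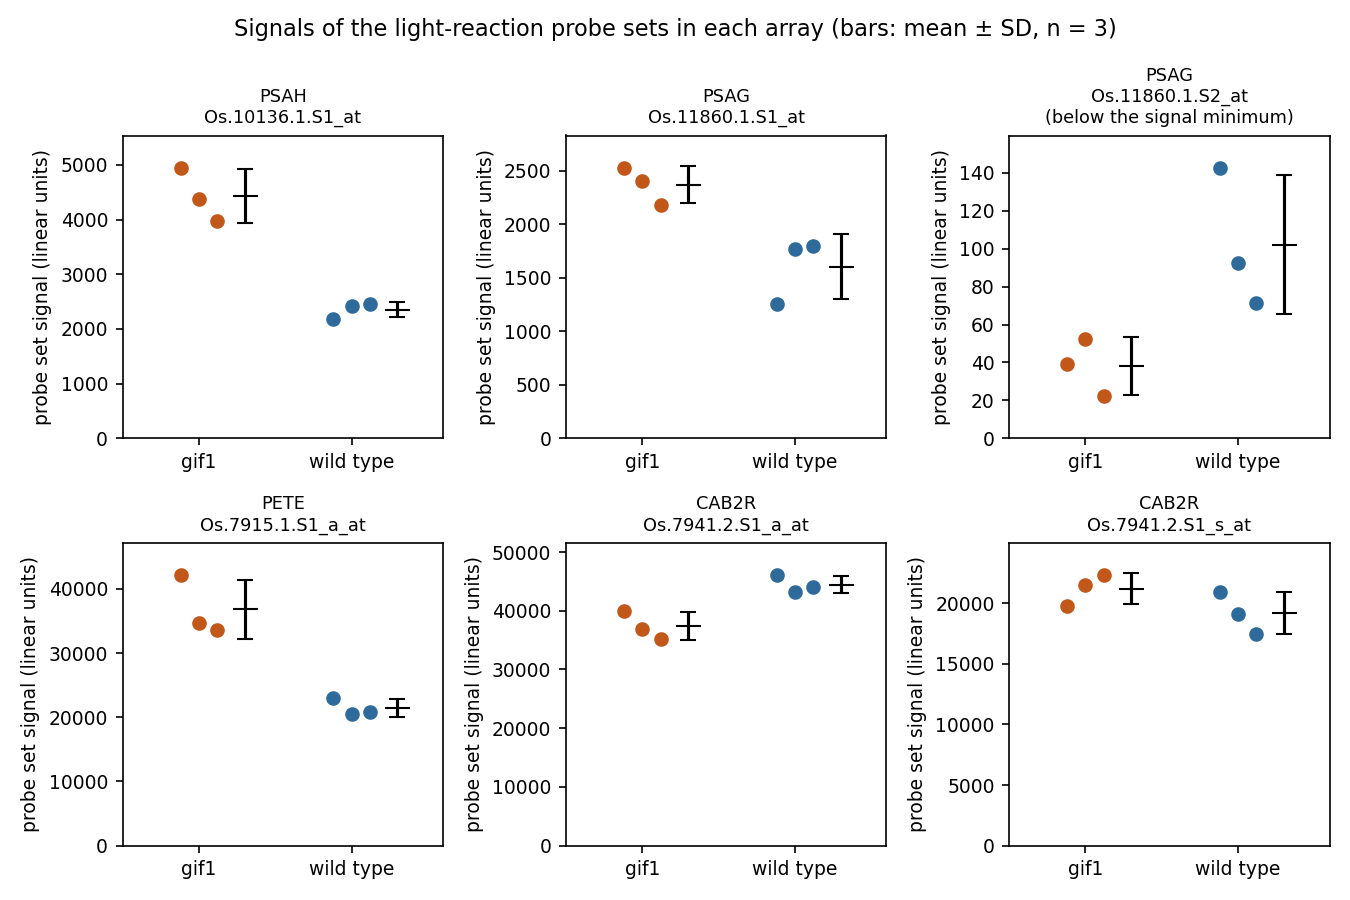
Signals of the 6 light-reaction probe sets, 1 point per array, with gif1 left of wild type and the mean ± SD (n = 3) beside the points; the vertical axes are linear and start at 0. PSAH, the brighter PSAG probe set and PETE are higher in every gif1 array than in any wild-type array, while one CAB2R probe set is lower in every gif1 array and the other overlaps.

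PETE encodes plastocyanin, the small copper protein that carries electrons from cytochrome b6f to photosystem I. It read 42118.8, 34740.8 and 33613.0 in gif1, against 23015.2, 20431.7 and 20795.9 in wild type. Every gif1 array was above every wild-type array, and gif1 replicate 1 was the highest. The means were 36824 ± 4620 in gif1 and 21414 ± 1398 in wild type (SD, n = 3 each), a ratio of 1.72. The log2 difference was 0.78 (SE 0.11, limma adjusted p = 0.00163), and it passed under 15 of 16 alternatives, the exception being the variance model without an intensity trend (adjusted p = 0.0558). PETE is among the brightest probe sets, of which few rose. Of the 334 tested probe sets with a mean signal of at least 20000, 11 were called higher and 104 lower, and their median log2 difference was -0.22.

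CAB2R encodes a chlorophyll a/b-binding protein of the light-harvesting antenna, and its 2 probe sets did not move as PSAH and PETE did. The probe set whose name ends in a_at read 40011.3, 36852.8 and 35235.4 in gif1, against 46052.1, 43143.4 and 44125.7 in wild type. All gif1 arrays were lower, but the means of 37367 ± 2429 in gif1 and 44440 ± 1480 in wild type (SD, n = 3 each) gave a log2 difference of only -0.25 (SE 0.09, 95% interval -0.46 to -0.05) that did not pass (limma adjusted p = 0.106). This difference is close to the median of the 334 tested probe sets with a mean signal of at least 20000 (-0.22). It turned positive with other scalings, at 0.05 with quantile normalization, 0.09 with arrays centred on their medians and 0.26 with arrays scaled to the hybridization controls, and did not pass under any of them.

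The other CAB2R probe set, ending in s_at, read 19766.4, 21501.6 and 22307.4 in gif1, against 20951.2, 19121.6 and 17485.1 in wild type. The groups overlapped, and the log2 difference was 0.15 (SE 0.10, 95% interval -0.08 to 0.37, limma adjusted p = 0.395). It was higher and passed with arrays centred on their medians (0.48, adjusted p = 0.0128) and with arrays scaled to the hybridization controls (0.65, adjusted p = 0.00238). Both probe sets were designed on the same transcript sequence, per the platform annotation, and an s_at probe set can also bind transcripts of related genes. The log2 ratio of s_at to a_at was -1.02, -0.78 and -0.66 in gif1, against -1.14, -1.17 and -1.34 in wild type, and did not overlap (difference 0.40, exact permutation p = 0.1). For CAB2R, then, the sign of the difference depends on the probe set and on the scaling.

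**Figure D2:**
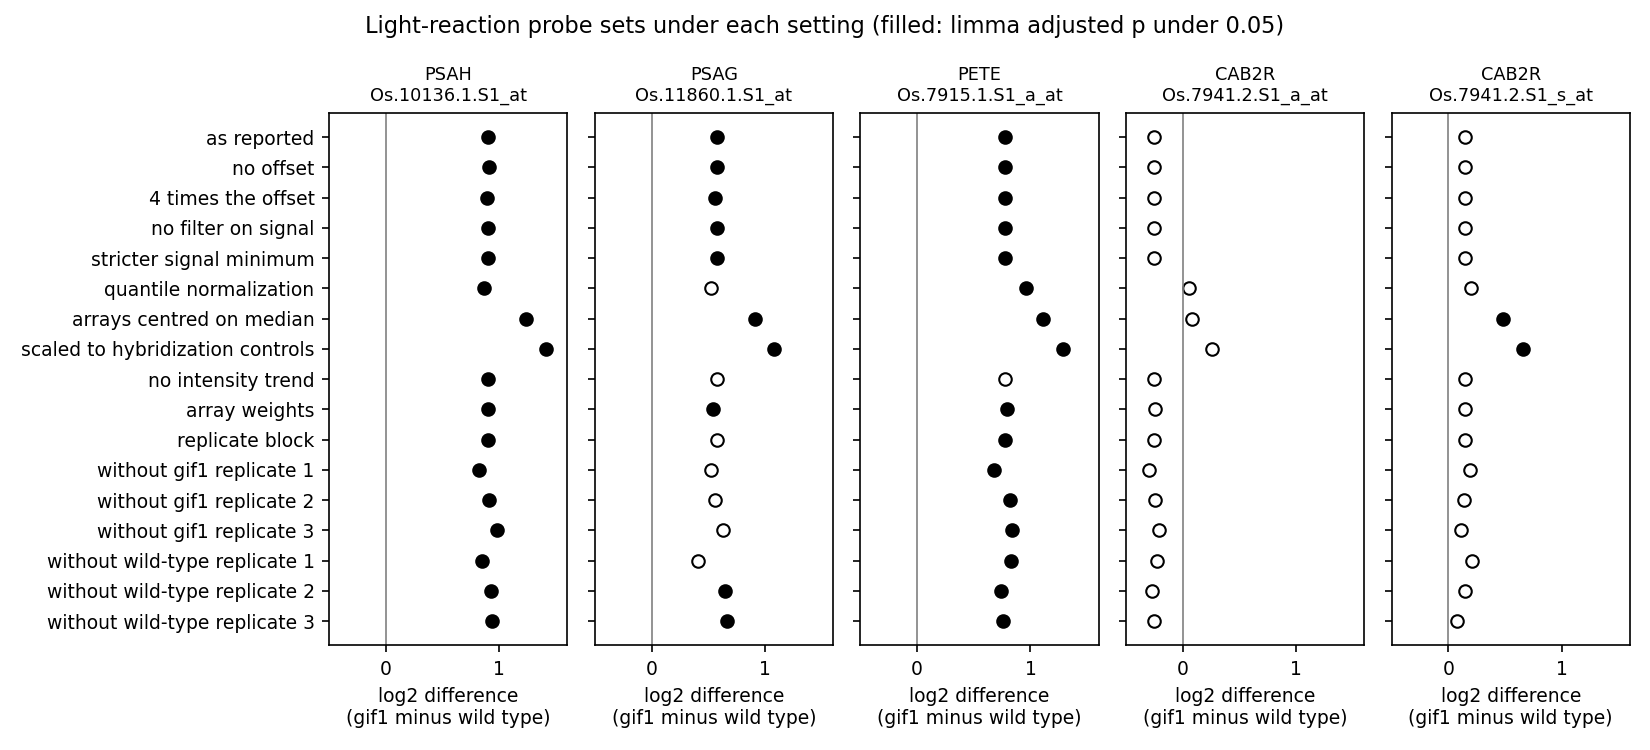
Log2 difference (gif1 minus wild type) of the 5 tested light-reaction probe sets as reported and under 16 alternatives, with filled points where the limma adjusted p was under 0.05. PSAH is filled throughout, PETE in all but the fit without an intensity trend, and PSAG in only part of them; the CAB2R a_at probe set lies below 0 except under the 3 other scalings.

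Since a single scaling factor per array cancels in a ratio of 2 probe sets on it, the members were also compared within arrays. This was done over 6 pairs of genes taken with their brightest probe sets. A scaling that depends on intensity does not cancel. Quantile normalization moved the difference of CAB2R a_at from -0.25 to 0.05 and that of PETE from 0.78 to 0.96. Those of PSAH (0.90 to 0.86) and PSAG (0.57 to 0.53) moved less. The log2 ratio of CAB2R to PETE was -0.07, 0.09 and 0.07 in gif1, against 1.00, 1.08 and 1.09 in wild type, a difference of -1.03. CAB2R to PSAH was 3.01, 3.07 and 3.15 in gif1, against 4.38, 4.15 and 4.16 in wild type, a difference of -1.15. For CAB2R to PSAG the difference was -0.83. In each of these pairs every gif1 array lay below every wild-type array, with a two-sided exact permutation p of 0.1, the smallest that 3 against 3 arrays allow (0.15 after Benjamini-Hochberg adjustment over the 6 pairs). This separation was fixed by the single probe sets, since CAB2R a_at was lower and PSAH, PETE and PSAG were higher in every gif1 array. The test therefore adds nothing to them. With the s_at probe set in place of a_at the differences were smaller, at -0.63 against PETE, -0.76 against PSAH and -0.43 against PSAG. The last of these overlapped (exact permutation p = 0.2).

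Among the 3 genes that rose, the ratio of PETE to PSAH overlapped between genotypes (difference -0.13, exact permutation p = 0.6), and so did that of PETE to PSAG (0.20, exact permutation p = 0.4). Single wild-type arrays moved both by over 1.5 times, to -0.02 for PETE over PSAH and 0.42 for PETE over PSAG without wild-type replicate 1, and for PETE over PSAG to 0.09 without wild-type replicate 2 or 3. PSAH over PSAG was 0.96, 0.86 and 0.86 in gif1, against 0.80, 0.45 and 0.45 in wild type, with no overlap (0.33, exact permutation p = 0.1). None of the 6 pairs could reach 0.05 with this number of arrays.

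**Figure D3:**
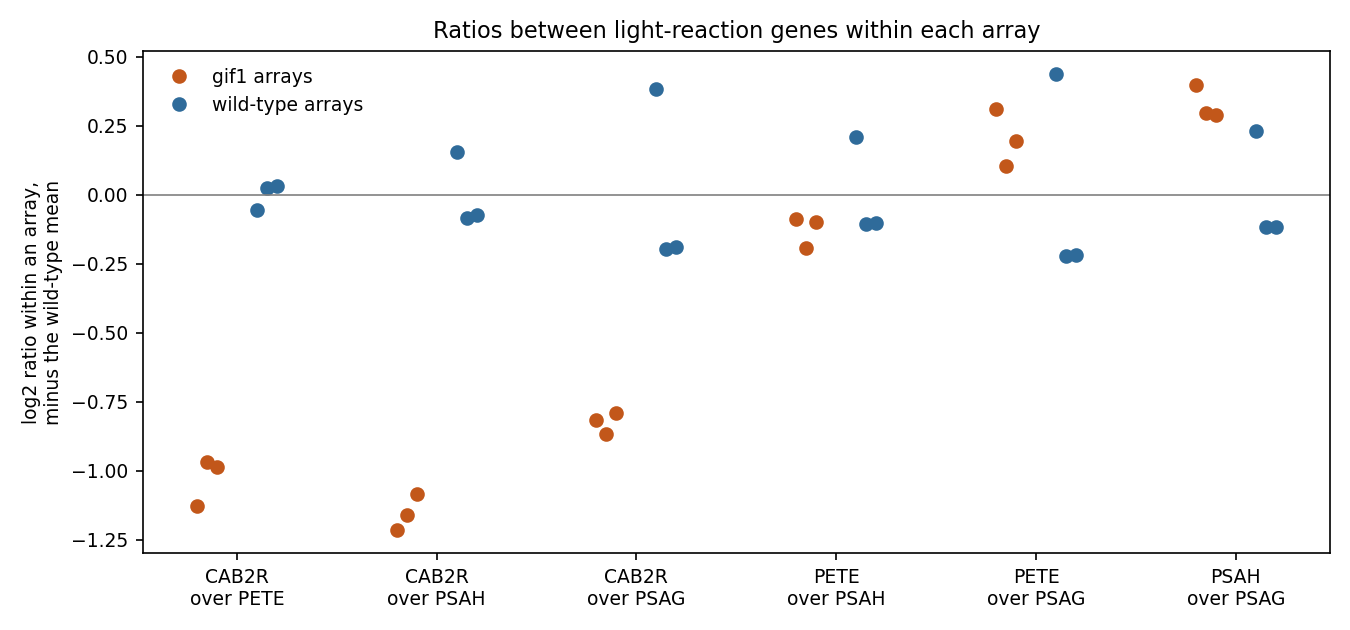
Log2 ratio of 2 light-reaction genes within each array, minus the wild-type mean of that pair, with gif1 arrays left of wild-type arrays and 1 point per array. CAB2R is lower in gif1 relative to PSAH (-1.15), PETE (-1.03) and PSAG (-0.83), while PETE over PSAH and PETE over PSAG overlap.

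A list of 3 light-harvesting and photosystem genes with other names was added after the values were seen. They were found by name, so the list need not hold all such genes. RCABP89 and RCABP69, chlorophyll a/b-binding proteins like CAB2R, and PSB28, a photosystem II protein, were all called higher in gif1. Over all tested genes 7.92% were called higher. RCABP89 read 19649.8, 21959.4 and 23636.1 in gif1, against 16399.0, 12981.1 and 12116.1 in wild type (0.66, SE 0.13, limma adjusted p = 0.00798). RCABP69 averaged 7711 ± 461 in gif1 and 4823 ± 474 in wild type (SD, n = 3 each; 0.68, SE 0.11). PSB28 differed by 0.93 (SE 0.23), a call that ended without gif1 replicate 1 (adjusted p = 0.0795) or 2 (0.107) and without wild-type replicate 2 (0.0753). None of the 3 passed without the intensity trend (adjusted p of 0.0634 to 0.0932). Relative to CAB2R on the same arrays, RCABP89 was higher by 0.91 and RCABP69 by 0.93, without overlap (exact permutation p = 0.1 for each, 0.178 after adjustment over 16 pairs). That separation too was fixed in advance, since RCABP89 and RCABP69 were higher and CAB2R a_at was lower in every gif1 array. Against PETE both overlapped (-0.12 and -0.10).

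Other genes of electron transport also leaned upward. Of 23 such genes by name 5 were tested, 4 of which were higher and 1 did not pass, with a median log2 difference of 0.94. Over all 15423 tested genes, taken with their brightest probe sets, 7.92% were called higher and 5.63% lower, and the median was 0.03. LFNR1, the leaf-type ferredoxin-NADP reductase that receives electrons from photosystem I, read 1439.8, 1758.6 and 1383.3 in gif1, against 545.8, 323.3 and 369.1 in wild type (1.87, SE 0.20, limma adjusted p = 0.000386). It lay 0.97 further up than PSAH and 1.09 further up than PETE on the same arrays, without overlap (exact permutation p = 0.1 for each). The Rieske protein gene petC encodes a subunit of cytochrome b6f, the complex that passes electrons to plastocyanin. It averaged 6723 ± 645 in gif1 and 3501 ± 363 in wild type (SD, n = 3 each; 0.94, SE 0.12). Its ratio to PSAH (0.04, exact permutation p = 0.8) and to PETE (0.16, exact permutation p = 0.5) overlapped between genotypes. The chloroplast NDH subunit gene ndhM rose by 0.99 (SE 0.18). Of the 2 remaining genes listed under the synonym FNR, LOC4334338 rose by 0.58 (SE 0.15), a call lost on leaving out any single array other than wild-type replicate 1 (highest adjusted p 0.130), and LOC4342399 differed by 0.22 (SE 0.12) and did not pass. The synonym does not say whether these 2 are of the leaf type, like LFNR1.

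Carbon fixation and photorespiration, which use the products of the light reactions, gave a wider range. All 4 tested genes of the carbon fixation list were higher, with a median of 1.45, although CFBP1 (1.47, SE 0.21) is the name of the cytosolic fructose-1,6-bisphosphatase of sucrose synthesis. The Rubisco small subunit RBCS (2.23, SE 0.20) and Rubisco activase rca (1.43, SE 0.14) had larger log2 differences than any light-reaction member, while the epimerase RPE (0.57, SE 0.14) did not, and its call ended without any one gif1 array or wild-type replicate 2 (highest adjusted p 0.0883). Of 5 photorespiration genes 2 were higher, GDCSH (2.10, SE 0.21), which encodes the H protein of the glycine decarboxylase complex, and the glycolate oxidase GLO3 (0.45, SE 0.11). GLO3 lost its call without any one gif1 array or wild-type replicate 3 (highest adjusted p 0.117). GLO4 (-0.36, SE 0.14) and GLO1 (-0.27, SE 0.14) did not pass, and the list's median was 0.11. Further probe sets disagreed for RBCS (0.86, SE 0.21, called, and -0.46, SE 0.30, not passing) and for GLO1 (0.76, SE 0.21, called), while the 3 others of rca were all called higher (1.15 to 1.65). A further GDCSH probe set went the other way, with means of 25.9 in gif1 and 105.4 in wild type. It was under the minimum signal and was not tested.

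Chlorophyll genes did not move as a block. Of 15 tested, 4 were higher, 1 was lower and 10 did not pass, with a median of 0.05. Here the scaling mattered, since 7 were higher and 0 lower with arrays centred on their medians, and 9 and 0 with arrays scaled to the hybridization controls. Over all tested probe sets the higher calls rose under them as well, from 1709 to 5817 and 9777. CAO, which makes the chlorophyll b that light-harvesting proteins bind, averaged 2336 ± 229 in gif1 and 838 ± 44.7 in wild type (SD, n = 3 each; 1.46, SE 0.14, limma adjusted p = 0.000177). CHLH, the large subunit of magnesium chelatase, rose by 1.16 (SE 0.15; 0.20, SE 0.27, in a dimmer probe set that did not pass), and PORB, a protochlorophyllide reductase, by 1.00 (SE 0.15). GSA, an early enzyme of the pathway that is named here because it passed, rose by 0.53 (SE 0.14), a call lost on leaving out any single array other than wild-type replicate 1 (highest adjusted p 0.105). SGR, which removes magnesium from chlorophyll as it is broken down, was lower at -0.74 (SE 0.19; -0.33, SE 0.26, in a further probe set that did not pass), a call lost in the same way (highest adjusted p 0.112) and under both the median and the hybridization-control scaling (0.191 and 0.370). GLK1, a transcription factor that switches on light-harvesting genes, read 498.6, 368.3 and 375.4 in gif1, against 220.5, 333.3 and 175.9 in wild type. The groups did not overlap, and the log2 difference of 0.76 (SE 0.26, limma adjusted p = 0.0824) did not pass.

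**Figure D4:**
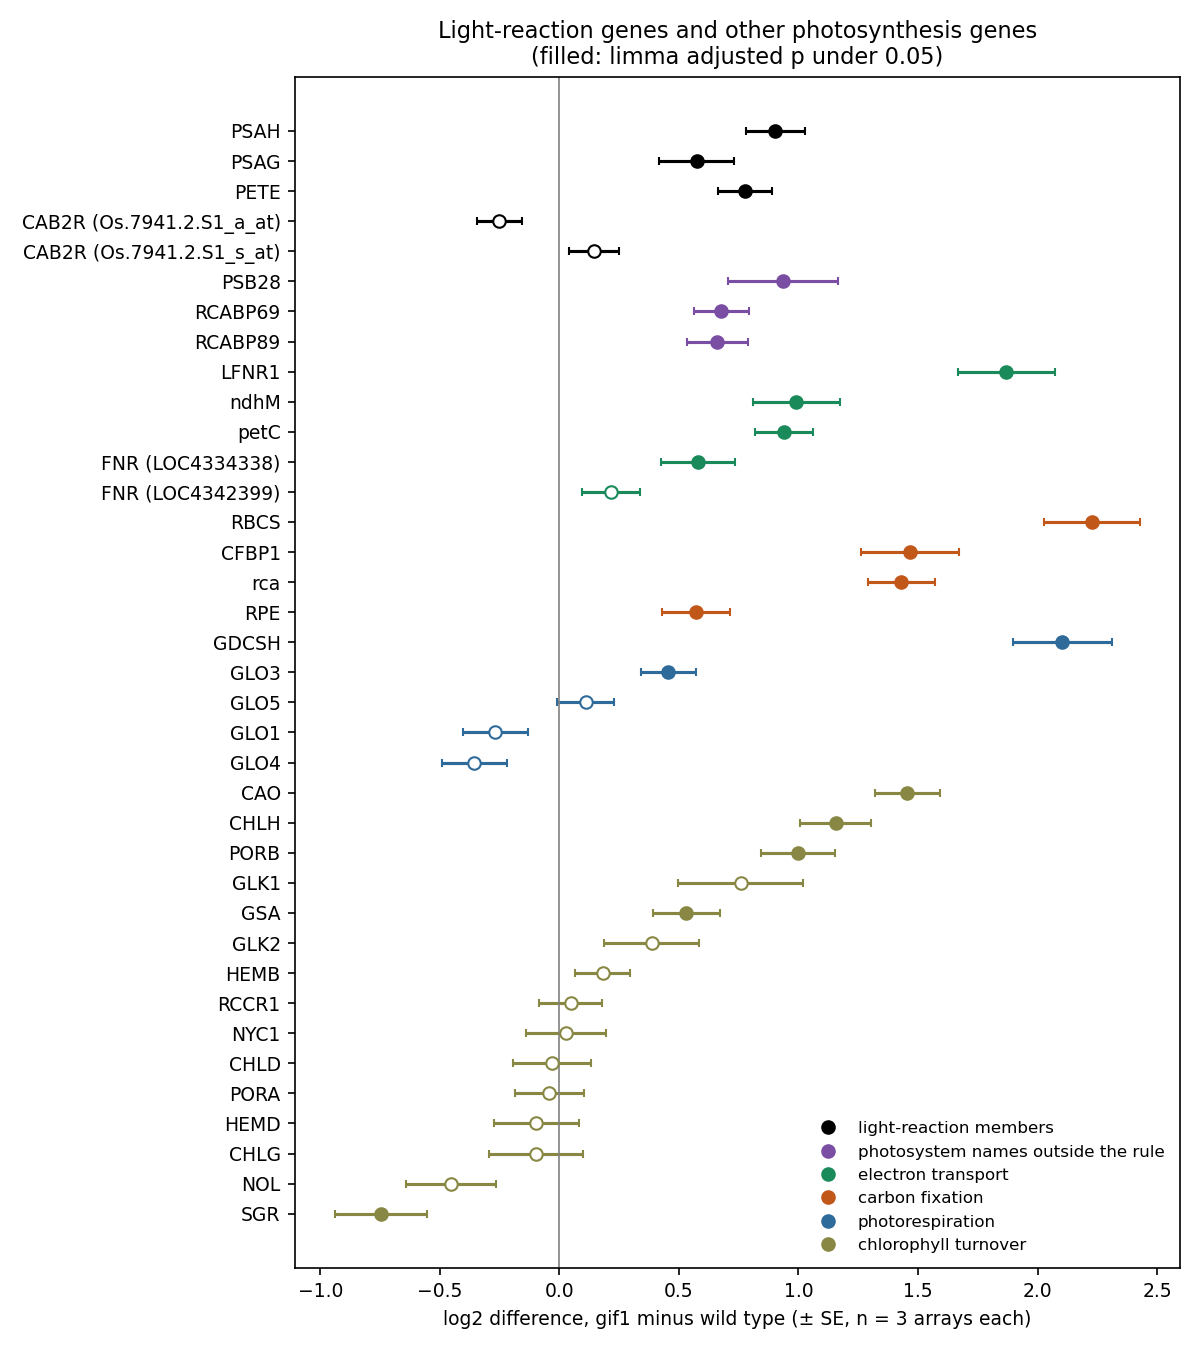
Log2 difference (gif1 minus wild type, ± SE, n = 3 arrays each) of the 5 tested light-reaction probe sets and of the tested genes of the other photosynthesis lists, filled where the limma adjusted p was under 0.05. PSAH, PSAG and PETE lie between 0.57 and 0.90, below RBCS (2.23), GDCSH (2.10) and LFNR1 (1.87), and the 2 CAB2R probe sets lie on either side of 0.

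Genes listed as markers of other tissues of the grain also differed between genotypes, although the tissues themselves were not measured. Of 11 starchy endosperm markers 8 were lower in gif1 and 0 higher. The lower ones were GLUA-1, GLUA-2, GLUA-3, GLUB-5, GluC, RAG1, RAG2 and Wx, while SSI, AGPS2 and PPDKB did not pass. The further tested Wx probe sets did not pass either (limma adjusted p of 0.0999 to 0.2). Of 8 aleurone and embryo markers 4 were lower (rab25, RAB16B, RAB16C and Emp1) and 1, OSH1, was higher. Over all tested genes 5.63% were called lower and 7.92% higher. The endosperm count dropped to 1 lower under each of the 3 other scalings, while the aleurone and embryo count stayed at 4 lower. Lower calls over all tested probe sets fell there from 1716 to 1401 (quantile normalization), 613 (median centring) and 477 (hybridization-control scaling). Without gif1 replicate 3 the endosperm count was 4 lower, and without gif1 replicate 1 it was 5. The summed signal of the endosperm markers was 461744 to 522483 in gif1 and 642912 to 802215 in wild type, and that of the aleurone and embryo markers 33081 to 34175 in gif1 and 61248 to 98022 in wild type. Of 5 genes listed as nucellus and pericarp markers, GLK1 and GLK2 among them, only MADS6 passed, as higher (0.54, SE 0.13). Whether MADS6 marks these tissues in the grain was not tested. With median centring 4 of the 5 passed, and with hybridization-control scaling 5. Higher calls over all tested probe sets rose there from 1709 to 5817 and 9777. The summed signal of the 5 was 10792 to 11161 in gif1 and 8898 to 9702 in wild type. The MADS6 call ended without gif1 replicate 2 (adjusted p = 0.103) or 3 (0.0908), without wild-type replicate 2 (0.0663) and without the intensity trend (0.0921). MADS13, known from the ovule, differed by 0.17 (SE 0.11) and did not pass. Their part in the differences of the light-reaction genes was not tested.

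Technical measures moved with genotype too. The GIF1 probe set, which checks the labels as far as the lesion lowers its transcript, read 100.9 to 190.4 in gif1 and 428.6 to 654.2 in wild type. Every gif1 array was below every wild-type array in median signal (67.5 to 72.6 in gif1, 83.7 to 103.6 in wild type), in the hybridization controls (1.42-fold), in the poly-A control RNAs added before labelling (4.72-fold) and in ribosomal RNA probe sets (2.09-fold), each with an exact permutation p of 0.1. Their part in the differences of the light-reaction genes was not tested. Under the scalings tried, PSAH differed by 0.86 to 1.41 and PETE by 0.78 to 1.29.

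By Pearson correlation of log2 values over the 6 arrays, the named genes most like PSAH were PAP2 (r = 0.995), CAO (0.994) and OG1 (0.990). Those most like PETE were the ascorbate peroxidase APX4 (0.998), the protein phosphatase BIPP2C1 (0.995) and OsVIT1.2 (0.992), and those most like PSAG were OsSGT1 (0.992), PDX12 of vitamin B6 synthesis (0.988) and the kinase gene CPK8 (0.980). The CAB2R a_at probe set was most like DRB2 (0.978), CSLC2 (0.963) and IPK2 (0.957), of which DRB2 (-0.53, SE 0.14) and IPK2 (-1.27, SE 0.26) were called lower and CSLC2 (-0.29, SE 0.19) did not pass. The DRB2 call held under 7 of 16 alternatives, and it was lost on leaving out any single array other than wild-type replicate 1 (highest adjusted p 0.139) and with median centring (-0.19) or hybridization-control scaling (-0.03, adjusted p = 0.921). Such likeness is common in 6 arrays of 2 genotypes, since of the 2036 named genes compared 172 reached 0.9 or more with PETE, 154 with PSAH, 54 with PSAG and 48 with CAB2R. It did not follow the size of the difference, since APX4 differed by only 0.29 (SE 0.12, limma adjusted p = 0.138) and OsVIT1.2 by 1.06 (SE 0.13).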

How the data were processed

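The deposited values are 1 intensity per probe set and array, for which the submitters' processing notes name GCOS 1.4; how it corrected, summarised and scaled them is not recorded there, but every array has a mean signal of 500.1 once the lowest and highest 2% of probe sets are left out, the scale from which the alternative scalings depart. The number of arrays, 6, limits the precision, and no column was left unmapped (0). Of 57381 probe sets, 187 controls were left out. The scale was log2(signal + 17.7), with the 25th percentile as offset, which understates changes at low signal. A mean signal of at least 74.1, the median, admitted 28597 probe sets to the fit in limma 3.58.1 in R 4.3.3 (lmFit, eBayes with an intensity trend, genotype alone, Benjamini-Hochberg over all tested). Names came from the platform annotation and the RefSeq table of assembly ASM3414082v1, which holds all 22436 probe sets with 1 gene; 95 probe sets with several genes were not named, no coordinates are printed because no genome build of the array is named, and no sequences were used. In the lists and ratios the brightest tested probe set stood for a gene.

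Named beside the members are GIF1, up to 4 genes per list with the smallest p, and the 3 genes most correlated with each member (a symbol or a synonym that is no clone name, no _x_at probe set); LOC4342399 and GSA were named after their values were seen. Members and lists were chosen with earlier results of these data known. Exact permutation tests (two-sided) compared the ratios, and those of LFNR1, petC, RCABP69 and RCABP89 to members were added after the values were seen. Deviations of same-numbered arrays from their group means did not correlate (r of -0.03, 0.02 and -0.05). This shows no shift shared by number over the tested probe sets, but it cannot exclude that the samples were paired. The labels call the samples biological repeats without naming plants, so p-values measure the spread between these samples. The fit was tested on simulated data, and figures were drawn with matplotlib 3.10.9 in Python 3.11.15.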

Additional observations from a re-analysis of the deposited data

How the results depend on the processing

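Limits: 3 arrays per genotype allow no exact permutation p under 0.1, the array scaling moves the median of all tested probe sets (-0.06 as reported, 0.28 centred on medians, 0.43 with hybridization controls), and signals near the offset carry little information. The planned search of promoter motifs was not run.

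PSAH was called under all 16 alternatives. PETE differed by 0.78 and lost its call without the intensity trend. PSAG was no longer called with quantile normalization (0.53), without the trend (0.57) and with the replicate block (0.57); without single arrays it ran from 0.41 to 0.66. The block changed no other member's call. The CAB2R a_at probe set changed sign with quantile normalization (0.051), median centring (0.085) and hybridization-control scaling (0.26), and s_at passed under the last 2 (0.48 and 0.65). Without the trend 1 member was called. With s_at the CAB2R ratios were -0.63 to PETE, -0.76 to PSAH and -0.43 to PSAG. Of genes named beside the members, GLO1 changed sign with median centring (0.067) and hybridization-control scaling (0.24), as did CSLC2 (0.051 and 0.20), and GLO4 with the second (0.15).

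Against 1709 probe sets higher and 1716 lower, median centring gave 5817 and 613 (90.5% higher), hybridization-control scaling 9777 and 477 (95.3%), no trend 368 and 416, and no signal minimum 1122 lower. Leaving out single arrays gave 727 to 2289 higher and 709 to 2005 lower.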
